A study of Homo sapiens with 4 samples.

Results

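In LNCaP cells treated with the synthetic androgen R1881, 5164 of 34152 TRIM28 binding sites on chromosomes 1 to 22 and X lay at promoters without an overlapping TRIM24 site. These sites, called TRIM28-only promoter sites here, were chosen by 3 criteria. Each was called in the TRIM28 R1881 list, shared no base with any site of the TRIM24 R1881 list, and had its centre within 1 kb of the transcription start site (TSS) of a protein-coding transcript. They lay at the promoters of 5089 protein-coding genes. Limiting every list to sites at or above its median strength left 2960 such sites, and a minimum of 10 normalized tags left 630. The 4 site lists of the series hold 107370 sites in all. The TRIM28 R1881 list also gave 1284 promoter sites that overlapped a TRIM24 R1881 site (shared promoter sites) and 24470 sites outside promoters with no TRIM24 overlap (TRIM28-only distal sites). The TRIM24 R1881 list gave 1705 promoter sites without TRIM28 (TRIM24-only promoter sites).

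LNCaP is a human prostate cancer line whose growth responds to androgen. Chromatin immunoprecipitation and sequencing (ChIP-seq) was done with an HA antibody on LNCaP cells that stably express HA-tagged TRIM24, and with a TRIM28 antibody on cells that the labels give as LNCaP. The paper names the HA-TRIM24 cells for both antibodies, so whether the TRIM28 samples also carried the tagged TRIM24 cannot be told from these sources. All 4 samples carry the genotype WT in the labels, and all cells were kept in charcoal-stripped serum for 3 days and then given ethanol, the vehicle, or 10 nM R1881 for 16 h. There was 1 sample per condition and no replicate, so no test between conditions was possible. TRIM24 was thus measured through an expressed, tagged protein and TRIM28 through the endogenous one.

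TRIM28, also known as KAP1, is a corepressor without DNA-binding specificity of its own. KRAB zinc-finger proteins bring it to DNA, where it assembles the histone methyltransferase SETDB1 and HP1 proteins, and it is best known for silencing retroelements and for binding the coding ends of zinc-finger genes. TRIM24 is a related protein of the TRIM family that reads histone tails through its PHD finger and bromodomain and acts as a coactivator of the androgen receptor in prostate cancer cells.

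Strong members show the range of sequence at these sites, from CpG-rich start sites to CpG-poor sites within genes. Sequences are given on the plus strand of hg19, 5′ to 3′, with an exact copy of a searched word in capitals. Stretches that lie in annotated UTR exons are limited to 30 bases. The site of ABCA7, a lipid transporter of the ABC family (chr19:1057481-1057637), had 1 CpG and 47.1% GC, and its capitals are an AP-1 word (TGANTCA). TTLL1 encodes a tubulin polyglutamylase, and the part of its site outside UTR exons (chr22:43485218-43485282) is shown. NDUFS7, a subunit of respiratory complex I, had an NRF1 word (GCGCATGC, here on the minus strand) in chr19:1383821-1383850. The BSDC1 site was chr1:32860242-32860398. The ZNF420 site (chr19:37619555-37619711) lay inside a coding exon of this KRAB zinc-finger gene, with 2 CpGs, 43.9% GC and an AP-1 word.
ABCA7: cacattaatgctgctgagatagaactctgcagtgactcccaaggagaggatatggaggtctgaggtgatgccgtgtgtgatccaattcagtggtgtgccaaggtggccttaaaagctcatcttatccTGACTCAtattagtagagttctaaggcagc
TTLL1: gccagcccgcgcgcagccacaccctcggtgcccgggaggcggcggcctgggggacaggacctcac
NDUFS7: gttccggtttccGCATGCGCtccgagccgc
BSDC1: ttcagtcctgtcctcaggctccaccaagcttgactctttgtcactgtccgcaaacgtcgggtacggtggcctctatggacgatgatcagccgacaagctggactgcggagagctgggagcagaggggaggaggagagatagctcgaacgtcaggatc
ZNF420: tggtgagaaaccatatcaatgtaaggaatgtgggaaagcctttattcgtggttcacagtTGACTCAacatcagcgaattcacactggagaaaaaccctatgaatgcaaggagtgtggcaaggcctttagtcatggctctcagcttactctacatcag

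The depth of the lists bears on every share below. The headers gave between 11606880 and 25145171 tags per sample, the highest in TRIM28 with ethanol, against 14231181 in TRIM28 with R1881. Normalized tags, the measure of strength, are tags at a site per 10000000 tags of the sample. In TRIM28 with R1881 the lowest site had 5.6 normalized tags, and in TRIM28 with ethanol 4.0, so the ethanol list reaches weaker sites and holds 57690 sites on the same chromosomes. The lowest site listed for TRIM24 with R1881 had 5.4 normalized tags. A site missing from the TRIM24 list may still carry TRIM24 tags too few to be listed, and TRIM28-only means only that no site was listed.

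Most TRIM28-only promoter sites were weak. Their median was 7.0 normalized tags with quartiles of 6.3 and 8.4, and the 95th percentile was 11.2. The median was 8.4 at shared promoter sites and 7.7 at TRIM28-only distal sites, and this list was used to choose the members, so these levels are a description. At the median a site rests on 10 tags, for which the exact Poisson 95% interval is 4.8 to 18.4 tags. The density at the members was a median of 8.11 times that of the surrounding 10 kb.

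The members crowded around the TSS. Their centres had a median position 17 bp upstream of the nearest TSS, given as -17, with quartiles at -160 and 92 bp, and 64.7% (95% Wilson interval 63.4 to 66) lay within 200 bp of it. Shared promoter sites were tighter, with 75.6% within 200 bp. The difference was -10.9 percentage points with a 95% Newcombe interval of -13.5 to -8.16. TRIM24-only promoter sites lay further into the gene, at a median of 32 bp downstream, and 41.3% of them were upstream of the TSS against 54.5% of the members (difference 13.1 points, 10.4 to 15.8). These intervals, like all intervals on shares here, cover the sampling of sites within these samples and not the variation between cultures.

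**Figure D1:**
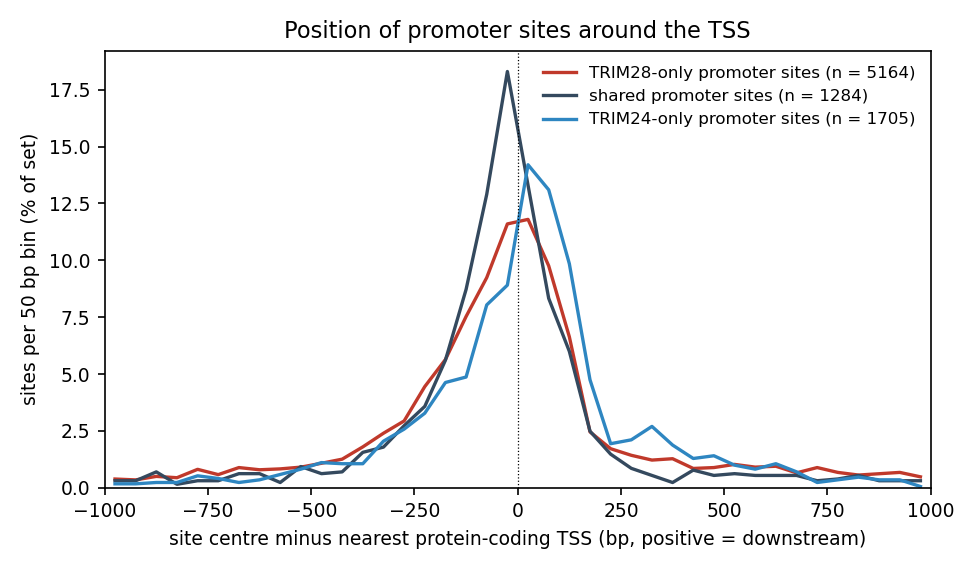
Share of sites per 50 bp bin (y axis, % of each set) against the distance of the site centre from the nearest protein-coding TSS (x axis, bp, positive downstream), for TRIM28-only (n = 5164), shared (n = 1284) and TRIM24-only (n = 1705) promoter sites. TRIM28-only sites peak at the TSS with 11.8% in the bin from 0 to 50 bp, shared sites just upstream with 18.3% in the bin from -50 to 0 bp, and TRIM24-only sites downstream with 14.2% from 0 to 50 bp and 13.1% from 50 to 100 bp.

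A canonical TSS lay within 1 kb of 84.4% of the members, and 10.4% had protein-coding TSSs on both strands within that distance. By annotation, 9.76% of the centres were in coding sequence, 29.9% in UTR exons and 60.4% outside exons of protein-coding transcripts. At the edge of the 1 kb window, the members of RPS6KA4 (1000 bp) and H3-3A (999 bp) had 7.7 normalized tags each. Just outside it, the sites of USP3 and NAA60, both 1001 bp from a TSS, had 7.0 each.

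The members were CpG-rich. The 200 bp around their centres had a median GC content of 65%, against 68% at shared promoter sites, 70% at TRIM24-only promoter sites and 44.5% at TRIM28-only distal sites. The ratio of observed to expected CpGs was above 0.6 at 74.7% of the members (73.5 to 75.9), fewer than at shared promoter sites (85.5%, difference -10.8 points, -13 to -8.48) and at TRIM24-only promoter sites (88.9%, difference -14.2 points, -16 to -12.2). Across all 19471 canonical protein-coding TSSs the median GC content was 66.5%. The 1307 members with a lower CpG ratio overlapped a TRIM24 ethanol site less often than the 3857 CpG-rich ones, at 2.98% against 9.44% (difference 6.45 points, 5.07 to 7.7).

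TRIM28 with ethanol was not used in choosing the members. In that list, 3083 of the 5164 members (59.7%, 58.4 to 61) overlapped a site, beside 62.6% of all TRIM28 R1881 sites. Shared promoter sites did so more often, at 81.9%, a difference of -22.2 points (-24.6 to -19.7). TRIM28-only distal sites were close to the members at 61.5% (difference -1.78 points, -3.25 to -0.314).

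Many of the other members had an ethanol site nearby that shared no base with them. A further 1142 members (22.1%) had the nearest ethanol centre within 500 bp and 283 (5.48%) had it 501 to 1000 bp away, against 5.06% and 1.69% of TRIM28-only distal sites. An ethanol site centre within 1 kb was thus found for 87.3% of the members and 68.2% of distal sites (difference 19.1 points, 18 to 20.1). The share was 72.7% over all TRIM28 R1881 sites. Other promoter sites were like the members in this, with 94.7% of shared and 84.8% of TRIM24-only promoter sites. At 310 members (6%) the nearest ethanol site was over 10000 bp away, as it was for 19.2% of distal sites. HOMER kept sites of this list at least 312 bp apart and those of the ethanol list 330 bp apart, which bears on where neighbouring sites can be listed.

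Of the members with at least 15 normalized tags, 3 had no overlapping ethanol site, of which 2 are described here. For ZNF420 (20.4) an ethanol site of 18.3 was centred 177 bp away on the lower-coordinate side. MTARC2, a mitochondrial reductase gene (16.9), had an ethanol site of 9.9 at 162 bp. At these 2 genes TRIM28 was listed under both treatments, at different positions. The ZNF420 member was centred in a coding exon, 564 bp downstream of the nearest TSS.

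The share of members with an ethanol site followed their strength. It was 50.7% (48.2 to 53.3) at 5.6 to 6.3 normalized tags (1467 members), 55.4% at 7.0, 61.1% at 7.7 to 8.4, 69.3% at 9.1 to 10.5, 84.8% at 11.2 to 14.1 and 92.7% (82.7 to 97.1) in the 55 members from 14.8 upward. In the weakest class the members lay above distal sites (46.3%, 45.1 to 47.5) and below shared promoter sites (72.4%, 65.6 to 78.4). The intervals of members and shared promoter sites did not overlap in the 4 weaker classes and overlapped in the 2 strongest.

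**Figure D2:**
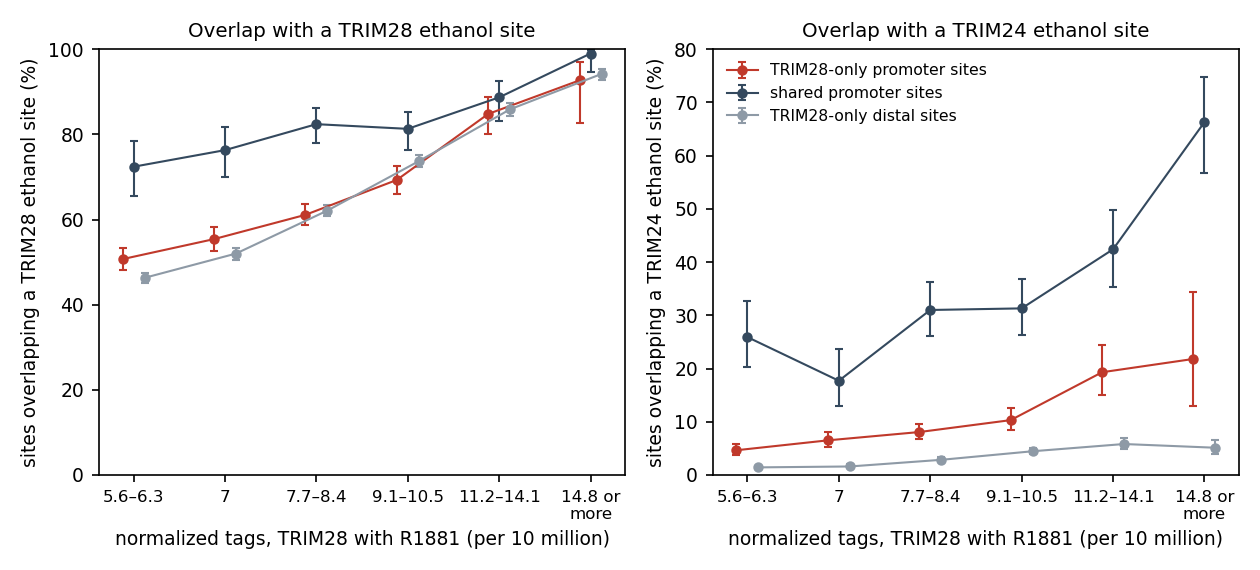
Share of sites overlapping a TRIM28 ethanol site (left) or a TRIM24 ethanol site (right), in % with 95% Wilson intervals, by normalized tags in TRIM28 with R1881 (x axis), for 3 sets of TRIM28 R1881 sites. On the left the members rise from 50.7% to 92.7% close to distal sites, and on the right they rise from 4.64% to 21.8% between shared promoter sites and distal sites.

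Distance from the TSS went with the ethanol share as well. Of the 3342 members within 200 bp of a TSS, 64.5% overlapped a TRIM28 ethanol site, against 47.9% of the 722 members at 501 to 1000 bp (difference 16.6 points, 12.6 to 20.6). Members upstream of the TSS had an ethanol site more often than those downstream, at 62.4% and 56.4% (difference 5.98 points, 3.29 to 8.66). Between members at a canonical TSS and those at another TSS only, the shares were 59.7% and 59.5%, with a difference of 0.204 points and an interval of -3.44 to 3.92.

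Where both TRIM28 lists had a site, its strength was alike. The log2 ratio of normalized tags, R1881 over ethanol, had a median of 0.04 at the 3083 members with quartiles of -0.24 and 0.30, beside a median of 0.08 over all 21373 such TRIM28 R1881 sites, -0.05 at shared promoter sites and 0.10 at TRIM28-only distal sites. Of these members, 36 (1.17%) were at least 2-fold higher with R1881, where 2.55% of all such sites were, and 19 (0.616%) were at least 2-fold lower, where 0.838% were. A weak site enters the R1881 list only when its R1881 count is high enough, and the R1881 values chose the members, so no direction is read from the ratio. With sites of at least 10 normalized tags only, the median was -0.05 (254 sites).

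The members with the highest ratios were PPARD, a nuclear receptor for fatty acids, with 11.9 normalized tags with R1881 and 4.8 with ethanol, and CARM1, an arginine methyltransferase and coactivator of nuclear receptors, with 13.4 and 5.6. CSNK1E, a casein kinase, had 10.5 and 4.4. NAB2, a corepressor of EGR factors, PTK2B, a tyrosine kinase, and KMT2D, a histone H3 lysine 4 methyltransferase, each had 11.2 and 4.8. The ratio of PPARD was 2.48, and its exact 95% interval from the tag counts of both samples was 1.13 to 5.74. The counts behind the extremes are thus small, and the interval covers counting error only.

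At the other end, HMOX1, the inducible heme oxygenase, had 5.6 normalized tags with R1881 and 14.3 with ethanol (ratio 0.392, exact interval 0.158 to 0.859). KATNBL1 had 6.3 and 15.5, LRRC59 5.6 and 13.1, and ENSG00000284956 6.3 and 14.7. CRLF3 and GEMIN5, which binds small nuclear RNAs in the SMN complex, both had 7.0 and 15.5. CRLF3 also had a TRIM24 ethanol site of 12.1. With R1881 these 6 members were at or below the members' median of 7.0 normalized tags, while their TRIM28 ethanol sites had at least 13.1.

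**Figure D3:**
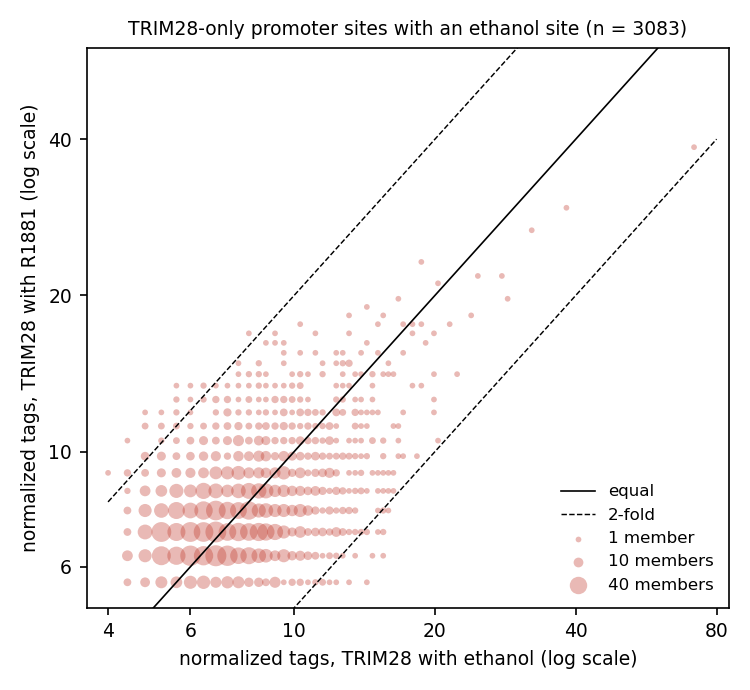
Normalized tags of TRIM28 with R1881 (y axis, log scale) against the strongest overlapping TRIM28 ethanol site (x axis, log scale) at the 3083 TRIM28-only promoter sites that have one. Circle area grows with the number of members at a pair of values, the solid line marks equal values and the dashed lines 2-fold differences. Most members lie between the dashed lines, with 36 at or above the upper and 19 at or below the lower.

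Of the 12 strongest members, 10 are described here. ABCA7 had 29.5 normalized tags with R1881 and 38.2 with ethanol. TTLL1 had 26.7 and 32.2, NDUFS7 23.2 and 18.7, and BSDC1 21.8 and 24.7. All 4 lacked a TRIM24 site with ethanol, and at NDUFS7 a TRIM24 R1881 site was centred 265 bp away. The tag density at ABCA7 was 37.84 times that of its surroundings and at NDUFS7 20.82 times.

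Next came ZNF529, another KRAB zinc-finger gene, with 21.8 and 27.8 in a coding exon, then DTWD1, a tRNA-modifying enzyme, with 21.1 and 20.3. ZNF420 had 20.4 with R1881. TRIM9, a neuronal ubiquitin ligase, had 19.7 and 16.7. FAM72A had 19.7 and 28.6, but it belongs to a family of nearly identical copies, among which reads cannot be placed with certainty. ACOT13, an acyl-CoA thioesterase, had 19.0 and 14.3 and was the only one of these 10 with a TRIM24 ethanol site, of 11.2. For these 8 members from TTLL1 to ACOT13 with both values, the exact interval of the ratio included 1, as it did for ABCA7.

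TRIM24 with ethanol was likewise not used in choosing the members. In its list, 403 members (7.8%, 7.1 to 8.57) overlapped a site, beside 7.7% of all TRIM28 R1881 sites. The share was 32.6% at shared promoter sites (difference -24.8 points, -27.5 to -22.2), 14.4% at TRIM24-only promoter sites (difference -6.62 points, -8.51 to -4.86) and 2.85% at TRIM28-only distal sites (difference 4.95 points, 4.22 to 5.74). A TRIM24 ethanol site was centred within 1 kb of 15.3% of the members. Where centres within 1 kb counted as overlapping in the choice of members too, 4345 sites remained and the share was 12.1%, and with sites of at least 10 normalized tags only, 630 remained and it was 13.8%. It rose with TRIM28 strength, from 4.64% in the weakest class to 21.8% (12.9 to 34.4) in the strongest. In all 6 classes the interval of the members lay above that of distal sites and below that of shared promoter sites. Near the TSS it was 9.96%, against 2.22% at 501 to 1000 bp (difference 7.75 points, 6.08 to 9.11).

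The highest TRIM24 ethanol value at a member was 53.4, at PPP6R3, a regulatory subunit of protein phosphatase 6. Its TRIM28 site was weak, with 6.3 normalized tags with R1881 and 11.1 with ethanol. A TRIM24 R1881 site of 83.8 was centred 180 bp away, so this member missed the shared set by position. CBFA2T2, a transcriptional corepressor, had 20.7 for TRIM24 with ethanol, and its TRIM28 values were 8.4 with R1881 and 13.9 with ethanol. MRPL24, a mitochondrial ribosomal protein, had 19.8, with TRIM28 at 8.4 and 5.6. Neither had a TRIM24 R1881 site within 1 kb. TRAPPC3, a subunit of a vesicle-tethering complex, had 18.1, with TRIM28 at 10.5 and 10.3 and a TRIM24 R1881 site of 7.0 centred 440 bp away.

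The overlap criterion left TRIM24 close to some members. A TRIM24 R1881 site centre lay within 1 kb of 819 members (15.9%), of which 228 were 157 to 250 bp away, 362 were 251 to 500 bp and 229 were 501 to 1000 bp. The nearest was at NAT10, an RNA acetyltransferase, where the TRIM24 centre was 157 bp away. From the other side of the limit, the sites of PRCC and TFAP2C shared 1 bp with a TRIM24 site and are not members. The median distance over all members was 54940 bp. Of the 403 members with a TRIM24 ethanol site, 324 had no TRIM24 R1881 centre within 1 kb, beside 4345 of all members (84.1%). The choice of members removed every overlapping TRIM24 R1881 site, so no change with R1881 is read from this count. The 819 members near TRIM24 overlapped a TRIM28 ethanol site less often than the rest, at 51.4% against 61.3% (difference -9.86 points, -13.6 to -6.15), while 94.7% of them had one within 1 kb.

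Counted by gene, 5089 of 19748 protein-coding genes (25.8%) had a TRIM28-only promoter site. A shared promoter site was found at 7.3% of genes and a TRIM24-only promoter site at 9.66%. Of the 5089 genes, 4411 had 1 member, 629 had 2 and 49 had 3 or more. A shared site also stood at 309 of them and a TRIM24-only site at 810, while 4005 had neither. Any TRIM24 R1881 site within 1 kb of a TSS was found for 21.3% of the genes with a member and 14.7% of the 14659 genes without. The TRIM24 R1881 list was used to choose the members, and the number of start sites was not matched. These 2 shares are thus a description.

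The largest number of members of a gene was 5, at NUMA1 and DLG2, and both have several start sites. At NUMA1, a mitotic spindle protein, the 5 sites had 6.3 to 8.4 normalized tags and 4 of them overlapped an ethanol site of 6.0 to 9.9. At DLG2, a synaptic scaffold gene, they had 5.6 to 7.7, and 2 overlapped an ethanol site, of 4.8 and 10.3. By chromosome the share of genes with a member ran from 3.83% (2.74 to 5.33) on chromosome X, 33 of 862 genes, to 34.8% on chromosome 15. Chromosome X also held few TRIM28 R1881 sites of other kinds, 0.919% of all against 0.581% of the members.

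Gene lists are described by counts beside the 25.8% of all protein-coding genes. They were written with results of these data known, and gene length, expression and number of start sites were not matched. Of the 19 lists, aminoacyl-tRNA synthetases and partners of TRIM28 had the highest shares, and HOX genes, protocadherins and olfactory receptors the lowest.

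Of 42 genes for partners of TRIM28 in repression, 22 (52.4%, 37.7 to 66.6) had a member. A shared site stood at 2 of them (4.76%) and a TRIM24-only site at 8 (19%), against 7.3% and 9.66% of all genes. The strongest was at TASOR, a subunit of the HUSH silencing complex, with 9.1 normalized tags and the nearest ethanol site 18426 bp away. HDAC2, a histone deacetylase, had 8.4 and no overlapping ethanol site, the nearest being centred 215 bp away. CHD3, the NuRD remodeller that TRIM28 recruits, had 8.4 with R1881 and 9.9 with ethanol. These 3 sites were named because they were the strongest of the list. The 26 member sites of the list had a median of 7 normalized tags, the same as all members.

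ZNF genes, many of which encode the proteins that recruit TRIM28, had a member at 185 of 512 genes (36.1%, 32.1 to 40.4). A shared site stood at 12.9% of them and a TRIM24-only site at 14.3%. Of their 208 member sites, 13 were centred in coding sequence, beside 9.76% of all members. Members had to lie within 1 kb of a TSS, so coding sequence further away could not enter this count. Of those 13 sites, 12 overlapped an ethanol site (92.3%, 66.7 to 98.6). Of the 195 sites outside coding sequence, 59% (52 to 65.6) did so, a difference of 33.3 points (6.86 to 42.8). The coding sites also had a higher median strength, 9.8 against 7.7 normalized tags, and none overlapped a TRIM24 ethanol site (95% Wilson upper limit 22.8%). This split was made after the values were seen. ZNF529 and ZNF420 are among the coding sites. ZNF76 had the strongest site of a ZNF gene outside coding sequence, with 18.3 with R1881 and 23.9 with ethanol.

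Genes of protein synthesis and turnover often had a member. Aminoacyl-tRNA synthetases did at 21 of 38 genes (55.3%, 39.7 to 69.9), with EPRS1 at 14.8 normalized tags with R1881 and 13.1 with ethanol. HARS1 and HARS2, which are transcribed in opposite directions, share 1 site of 13.4 and 12.7. Cytosolic ribosomal proteins had a member at 35 of 84 genes (41.7%, 31.7 to 52.3), and 25 of the 84 had a TRIM24-only site. RPL37 had 14.8 and 13.1 with a TRIM24 ethanol site of 8.6, and RPS24 had 12.6 and 8.7. RPL5 had 11.2 and no overlapping ethanol site, the nearest TRIM28 ethanol site being centred 186 bp away. Mitochondrial ribosomal proteins followed with 31 of 78 (39.7%), led by MRPL38 with 18.3 and 13.1, MRPL21 with 14.1 and 10.7 and MRPS23 with 13.4 and 10.3. MRPL21 and MRPS23 also had TRIM24 ethanol sites, of 10.3 and 12.1. The list of proteasome subunits, which also holds the assembly factors PSMD9 and PSMG2, had a member at 20 of 50 genes (40%). PSMD9 had 12.6 and 6.8, PSMG2 12.6 and 8.0 and PSMC2 11.9 and 6.8. Splicing factors had a member at 37 of 91 genes (40.7%), with HNRNPH1 at 9.1 and 12.3. SRSF5 at 11.2 and SNRPE at 9.8 had no overlapping TRIM28 ethanol site, the nearest being centred 266 and 197 bp away. SRSF5 also had a TRIM24 ethanol site of 8.6. The lower limits of all 5 lists lay above 25.8%. This was not particular to TRIM28-only sites. A shared site stood at 12% to 20.5% of the genes of these 5 lists, against 7.3% of all genes. For TRIM24-only sites the range was 13.2% to 29.8%, against 9.66%.

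Among metabolic genes, complex I had a member at 18 of 48 genes (37.5%, 25.2 to 51.6) and cholesterol synthesis at 11 of 28 (39.3%, 23.6 to 57.6). NDUFS7 was the strongest of complex I. NDUFB10 had 11.2 and 11.9 with a TRIM24 ethanol site of 10.3, and NDUFAF3 had 9.8 and 8.0. HSD17B7, a sterol reductase, had 9.1 and 9.9, and INSIG1, which retains SREBP in the endoplasmic reticulum, had 8.4 and 6.4. SREBF1, which encodes such a factor, had 8.4 and no overlapping ethanol site, the nearest being centred 426 bp away. Both intervals included 25.8%.

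Androgen-regulated genes had a member at 23 of 48 (47.9%, 34.5 to 61.7), and 6 had a shared site and 12 a TRIM24-only site. Their median log2 ratio of R1881 to ethanol was 0.07, beside 0.04 over the members. APPBP2 had 11.2 with R1881 and 8.0 with ethanol, and HOMER2 11.2 and 10.7. ADAMTS1 had 9.8 with R1881 and its nearest ethanol site was 42576 bp away.

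Of the cell-cycle and genome maintenance lists, DNA replication had a member at 19 of 50 genes (38%, 25.9 to 51.8), with an interval just above 25.8%, whereas mitosis had one at 13 of 50 (26%) and DNA damage repair at 12 of 50 (24%), both with intervals that included 25.8%. Among them POLD1, TYMS and CDK1 had 9.1 normalized tags each and no overlapping ethanol site. Their nearest TRIM28 ethanol sites were centred 417, 187 and 193 bp away. DBF4 had 8.4 with either treatment and a TRIM24 ethanol site of 9.5, and PARP1 had 11.2 and 9.1. RNF8, a ubiquitin ligase of the damage response, had 9.1, and its nearest ethanol site was 7426 bp away. Heat shock proteins and chaperones had a member at 11 of 36 genes (30.6%) and a TRIM24-only site at 14, more genes than had a member. HSP90AA1 had 11.2 and 5.2, DNAJB1 9.8 and 11.9, and CCT3 9.1 and 8.7.

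Histone genes had a member at 16 of 75 (21.3%) through 13 sites, with H2BC21 at 15.5 and 11.1. Imprinted genes had one at 8 of 34 (23.5%), with L3MBTL1 at 11.2 and 6.8 and PLAGL1 at 9.1 and 11.9. L3MBTL1 and PLAGL1 also had TRIM24 ethanol sites, of 9.5 and 8.6. HOX genes had a member at 3 of 39 (7.69%, 2.65 to 20.3). The strongest was at HOXB13, a homeobox factor of the prostate lineage, with 11.9 and 8.0, and HOXC4 and HOXC6 shared a site of 7.7 and 7.2. Clustered protocadherins had a member at 2 of 53 genes (3.77%) and olfactory receptors at 4 of 391 (1.02%, 0.399 to 2.6). Low shares at these 3 lists were not particular to TRIM28-only sites. No HOX gene or protocadherin had a shared or TRIM24-only site. Among olfactory receptors none had a shared site and 1 (0.256%) had a TRIM24-only site.

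**Figure D4:**
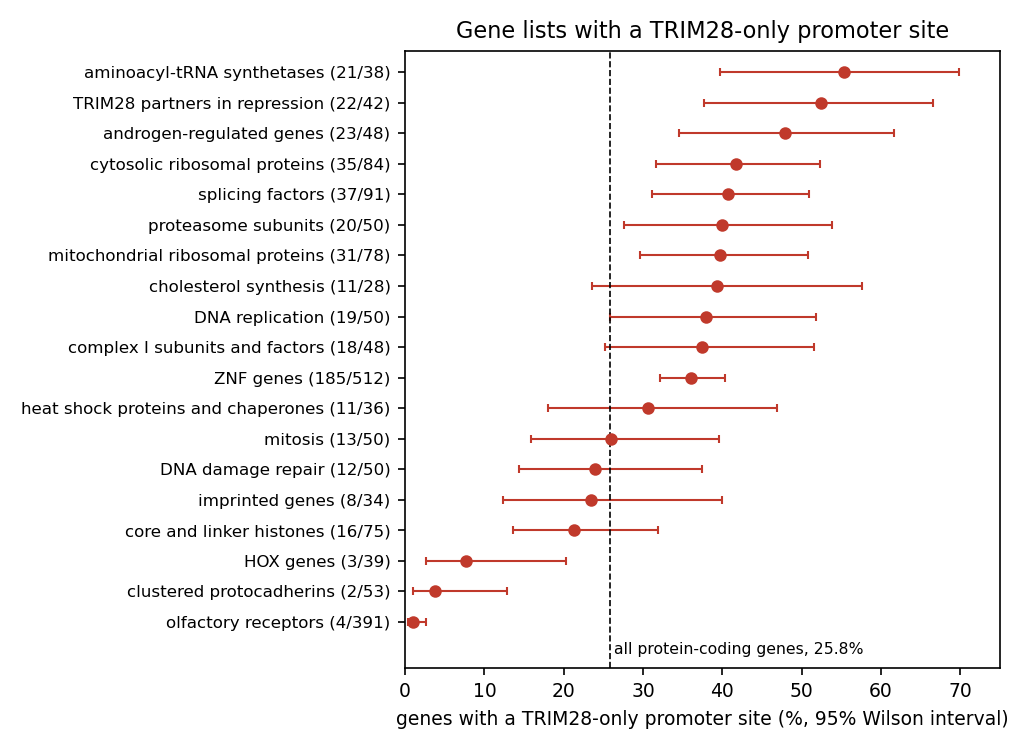
Share of the genes of each list with a TRIM28-only promoter site (x axis, % with 95% Wilson interval, counts in brackets), ordered by share, with the share over all protein-coding genes as a dashed line at 25.8%. Aminoacyl-tRNA synthetases (55.3%) and TRIM28 partners (52.4%) lie highest, and HOX genes, protocadherins and olfactory receptors lie below the line with their whole intervals.

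Sequence was not used in choosing the members. Both strands of the 200 bp around each centre were scanned for short words, as were windows of that length centred on all 19471 canonical TSSs. Those windows sat on the TSS itself, whereas 64.7% of member centres lay within 200 bp of a TSS. Position was not matched, so differences from TSS windows include any effect of position, which was not tested. A match describes these letters and not a bound factor. The most frequent word was that of SP/KLF factors (GGGCGGGG), in 705 members (13.7%, 12.7 to 14.6), but 26.1% of TSS windows held it (difference -12.5 points, -13.6 to -11.3). It shares GGCGGG with the E2F word (GGCGGGAA), which 120 members (2.32%) and 2.8% of TSS windows held. The NFY word (GCCAAT) was in 7.01% of members and 12.2% of TSS windows (difference -5.15 points, -5.96 to -4.29, but -0.47 with an interval of -1.02 to 0.129 in 100 bp windows), and TATAAA in 3.81% and 6.57% (difference -2.75 points, -3.36 to -2.1).

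The ETS word (CCGGAAGT) was in 191 members (3.7%, 3.22 to 4.25). Shared promoter sites held it more often, at 7.01% (difference -3.31 points, -4.91 to -1.92), as did TSS windows at 5.08%, although in 400 bp windows the members were 0.751 points above TSS windows. Members with the word overlapped a TRIM28 ethanol site more often than members without, at 73.8% against 59.2% (difference 14.7 points, 7.87 to 20.5), and a TRIM24 ethanol site more often, at 14.1% against 7.56% (difference 6.58 points, 2.27 to 12.3). They also lay closer to the TSS, at a median of 62 bp against 123 bp for all members, and nearness to the TSS went with both ethanol shares above. The part of position in this difference was not tested.

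The cyclic AMP response element (CRE, TGACGTCA) was in 68 members, of which 11 (16.2%, 9.28 to 26.7) overlapped a TRIM24 ethanol site, against 7.69% of the others (difference 8.48 points, 1.55 to 19). In all, 12 words were compared in this way. The E-box word (CACGTG) gave 66.1% with a TRIM28 ethanol site (difference 6.76 points, 0.552 to 12.5) and TATAAA 52.3% (difference -7.71 points, -14.8 to -0.712). Apart from ETS, the intervals of the other words on the TRIM28 ethanol share included 0. The words of NRF1 and YY1 (AAGATGGC) were in 120 and 121 members, 2.32% and 2.34%, against 2.94% and 3.79% of TSS windows, an order that turned for NRF1 in 400 bp windows.

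The forkhead, AP-1, androgen response element and CTCF words were rarer at members than at distal sites. The forkhead word (GTAAACA) was in 142 members (2.75%, 2.34 to 3.23), against 9.71% of TRIM28-only distal sites (difference -6.96 points, -7.52 to -6.36) and 1.22% of TSS windows (difference 1.53 points, 1.09 to 2.04). The AP-1 word was in 3.27% of members, 9.51% of distal sites and 3.06% of TSS windows. The androgen response element, with 1 mismatch allowed, was found at 14 members (0.271%, 0.162 to 0.455), against 0.597% of distal sites and 0.226% of TSS windows. The CTCF consensus, with 3 mismatches allowed, was also found at 14 members, against 0.969% of distal sites and 0.036% of TSS windows (difference 0.235 points, 0.119 to 0.42).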

How the data were processed

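Per the labels and the methods of the study, reads were aligned to hg19 with BWA 0.6.1, and sites were called by the authors in each sample separately with HOMER 4.1, with no input library in the recorded command. The deposited lists give a signal per site, the normalized tag count per 10000000 tags, and a score, which is not scaled for depth. They also give the deposited fold over the surrounding 10 kb, which had to be at least 4, and a deposited Poisson p-value, at most 1e-04, with a false discovery rate of 0.001 and at most 1 tag per base considered. Totals were to be equalised by random sampling according to the methods, whereas the headers' totals differ. Every normalized value in TRIM28 with R1881 was a whole number of tags within rounding (tolerance 0.0712 tags).

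From these lists, overlaps of at least 1 bp, distances to TSSs (GENCODE 44 on GRCh37, the same assembly as hg19) and word matches were computed with Python 3.11.15, numpy 2.4.6, pandas 2.3.3 and scipy 1.17.1. Figures used matplotlib 3.10.9. Where several ethanol sites overlapped a member, the strongest was used. A gene is named by its nearest TSS, or, for a gene list, by any TSS within 1 kb. Shares have Wilson and their differences Newcombe 95% intervals. Overlaps, distances and word matches were tested on simulated data. The members and the 19 gene lists were chosen with earlier results of these data known. Named are the 12 strongest members, up to 6 of at least 15 normalized tags without an ethanol site, the 6 highest and 6 lowest ratios, the 6 highest TRIM24 ethanol values, up to 3 genes per list and the sites at the limits of the rule. Sequences are those of the 6 strongest members and of the 2 strongest without an ethanol site. Items that fall under these rules but are withheld are not reported here. The splits of members by distance, side, CpG content, kind of start site and nearby TRIM24 site were chosen after values were seen.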

Additional observations from a re-analysis of the deposited data

How the results depend on the processing

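The number of members, 5164, ran from 4345 to 7189 under other promoter windows, TSS sets and overlap rules, and the number of genes, 5089, from 4277 to 5707. Both fell with stronger sites only, to 2960 members and 3109 genes when each list was limited to sites at or above its median, and to 630 and 685 at 10 or more normalized tags. The share with a TRIM28 ethanol site (59.7%) was 61.6% with a promoter window of 500 bp, 85.9% when centres within 1 kb counted as overlapping, which left 4345 members, 44.4% when at least 50% of the shorter site had to overlap, 58% above the medians and 40.3% at 10 or more tags, where weak ethanol sites are gone as well. The share with a TRIM24 ethanol site (7.8%) was 8.71% with 500 bp, 6.9% with TSSs of all transcripts, 12.1% with centres within 1 kb, 6.23% with the stricter overlap, 6.18% above the medians and 13.8% at 10 or more tags. The median log2 ratio (0.04) was 0.05 above the medians, 0.17 with the fold over the surrounding 10 kb and -0.05, reversed, at 10 or more tags, and 0.00 to 0.04 otherwise. On the scale of that fold the members' median level was 8.11. The difference between members and TSS windows turned from lower to higher in 400 bp windows for ETS (0.751 points), NRF1 (0.925), CRE (0.0768) and the E-box (0.986), so no direction is read for these words. The lower share of ETS words than at shared promoter sites, and the differences of SP/KLF, TATAAA, forkhead and CTCF words from TSS windows, kept their direction with intervals that excluded 0 in windows of 100 and 400 bp. At no window length were TSS windows matched to the members in position. That of the NFY word from TSS windows fell to -0.47 points in 100 bp windows, with an interval that included 0. No paired analysis was possible because there is 1 sample per condition. The depth limits the weak sites most, since a site at the median rests on 10 tags, and without replicates a difference between ethanol and R1881 could not be separated from variation between cultures.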
